A study of Mus musculus with 8 samples.

Results

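Vegfa and 7 genes of the lung capillaries were followed in embryonic mouse lung, namely Kdr, Nrp1, Car4, Emcn, Ednrb, Apln and Aplnr. Every probe set assigned to exactly 1 of these 8 gene symbols was taken, which gave 16 of 45037 probe sets (8 of 18193 named genes) on the array used at E18.5, and 12 of 12422 (8 of 8251 named genes) on the older array used at E11.5, where E counts days of embryonic life. At E18.5, 3 arrays of lungs of bitransgenic FVB/N embryos were compared with 3 arrays of lungs of control FVB/N littermates. The bitransgenic embryos, labelled as SP-C/MIA overexpressors, carried 2 transgenes and the controls carried 1 transgene. SP-C is surfactant protein C, a product of the distal lung epithelium, whose promoter is used to direct transgenes to those cells, and MIA is a small protein that melanoma cells and chondrocytes secrete. Which transgene the controls carried is not stated in the labels. At E11.5, 1 lung and 1 trachea array of FVB/N embryos were compared. Whether each array came from a separate animal is not stated either, so the p-values below measure only the spread between these arrays. Every lung or control counted or numbered below, and every n, stands for arrays.

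VEGF-A, the product of Vegfa, is secreted in the developing lung largely by epithelial cells and guides the growth of the capillaries around the future airspaces. It signals through the receptor tyrosine kinase VEGFR2, encoded by Kdr, with neuropilin-1 as a co-receptor. The alveolar capillary bed holds a cell type specialised for gas exchange, often called the aerocyte and marked by Car4, Ednrb, Apln and Emcn, and a general capillary cell marked by Aplnr, the receptor for the peptide apelin.

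The sequences just upstream of 3 of these genes are shown because they belong to the member that passed the test at E18.5 (Car4), to the ligand (Vegfa) and to a member with almost no difference (Apln). Each is the 250 bases before an annotated start, from RefSeq on GRCm38.p6, written 5′ to 3′ on the gene's strand: chr17:46032378-46032627, minus strand, for Vegfa, chr11:84957504-84957753, plus strand, for Car4, and chrX:48034854-48035103, minus strand, for Apln. Capitals mark the GC box (GGGCGG) and the ETS core (CCGGAA), the latter being the core letters bound by ETS factors, a family with known roles in endothelial genes.
Vegfa: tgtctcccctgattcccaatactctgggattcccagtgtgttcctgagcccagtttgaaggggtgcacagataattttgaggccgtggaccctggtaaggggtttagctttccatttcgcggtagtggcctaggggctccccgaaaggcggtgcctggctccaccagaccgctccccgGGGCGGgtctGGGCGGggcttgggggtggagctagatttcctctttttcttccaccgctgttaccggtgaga
Car4: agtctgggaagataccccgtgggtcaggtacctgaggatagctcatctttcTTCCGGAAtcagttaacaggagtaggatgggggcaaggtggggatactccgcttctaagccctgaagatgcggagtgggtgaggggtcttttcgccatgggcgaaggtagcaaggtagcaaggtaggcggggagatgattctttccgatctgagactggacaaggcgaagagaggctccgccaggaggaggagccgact
Apln: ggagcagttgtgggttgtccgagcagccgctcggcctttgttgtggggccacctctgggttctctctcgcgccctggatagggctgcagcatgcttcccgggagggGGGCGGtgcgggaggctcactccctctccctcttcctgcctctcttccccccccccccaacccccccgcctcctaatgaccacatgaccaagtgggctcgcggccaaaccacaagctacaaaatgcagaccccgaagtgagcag
The Car4 window held the ETS core on both strands, in overlapping letters starting 197 and 199 bases before the start, and had no GC box. The Vegfa window held 2 GC boxes and the Apln window held 1. Over all 8 windows matched to 7 of the members, with Vegfa having 2 windows and Aplnr none matched, the GC box was in 5, the ETS core in 2 (Car4 and Kdr), the HIF core (ACGTG) in 1 and the TATA box (TATAAA) in 0. Searched on both strands of all 32841 windows of that length, the GC box was in 32.7%, the ETS core in 12%, the HIF core in 16.6% and the TATA box in 12.4%. A match describes letters in the window and does not show a bound site.

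The values are Affymetrix MAS5 signals, a linear measure of a probe set's brightness that was scaled to a trimmed mean of 1500 on every E18.5 array. Median signals were between 415.3 and 464.2. The transgene product was read first: Mia read 1071, 1070 and 734 in controls against 31399, 42666 and 41546 in bitransgenic lungs, a log2 change of 5.21 (SE 0.18, limma adjusted p = 1.06e-06), so each array matched its label. Markers of endothelium (Pecam1, Cdh5, Tie1 and Cldn5) and of alveolar epithelium (Ager and Sftpc) were all above the filter on low signals. Mean correlation with the other E18.5 arrays was lowest for control 3, at 0.957, and for bitransgenic 3, at 0.965. As a sign of RNA integrity, the 3′ Actb control probe set was divided by the 5′ one, which gave 1.501, 1.465 and 1.285 for controls 1 to 3. The same Actb ratio gave 1.646, 1.506 and 1.615 for bitransgenic lungs 1 to 3, all higher than any control. For Gapdh the ratio was 0.9206, 0.921 and 0.7814 in controls 1 to 3 and 0.9963, 0.9209 and 1.079 in bitransgenic lungs 1 to 3. There the groups overlapped, with bitransgenic 2 between controls 1 and 2.

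The comparison at E18.5 asks how misexpressed MIA altered lung gene expression, here at the genes of the capillary bed. The mean signal of Car4 fell to 33.9% of control, and it was the 1 gene of the 8 that passed the test. Vegfa, its receptor Kdr, the co-receptor Nrp1 and the capillary sialomucin Emcn had lower signals in all 3 bitransgenic lungs than in all 3 controls, by log2 changes of −0.31 to −0.71, and did not pass. Ednrb, Apln and Aplnr overlapped between the groups. Across all 12625 genes tested, 0.436% were called lower at an adjusted p below 0.05 by limma, against 1 of 8 members. All bitransgenic arrays lay below all controls in 5 of 8 members and in 7.56% of the genes tested. The median log2 change of the 8 members was −0.33, against 0.01 for all genes tested. At an unadjusted p under 0.05 there were 5 of the 8 members and 9.7% of the genes. All values are from whole lung RNA, in which fewer cells of a type and less RNA per cell cannot be told apart.

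**Figure D1:**
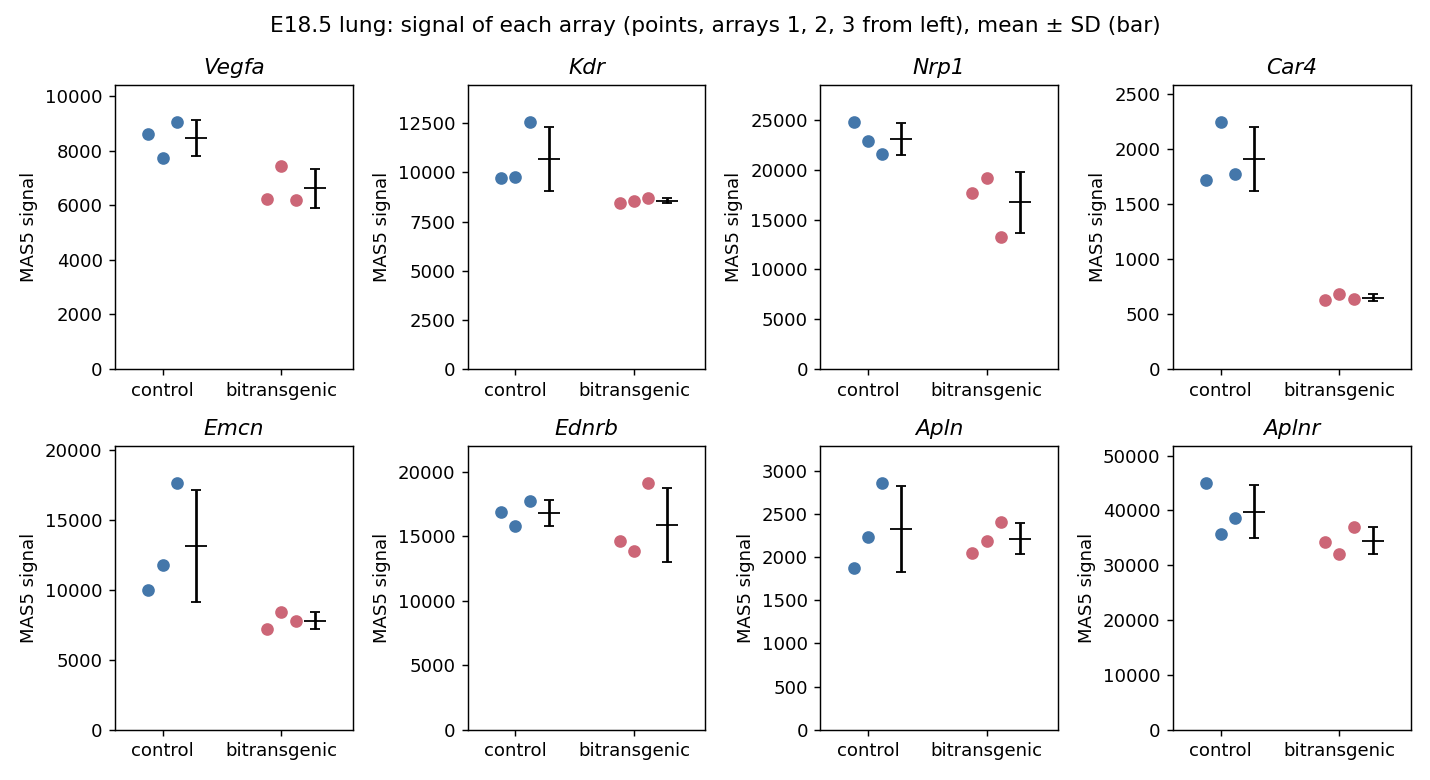
MAS5 signal of each E18.5 array (points, arrays 1 to 3 from the left) with group mean ± SD, for 3 control and 3 bitransgenic arrays. Each gene is shown by the probe set that stands for it. The groups are separate for Vegfa, Kdr, Nrp1, Car4 and Emcn and overlap for Ednrb, Apln and Aplnr, and the widest gap relative to its level is that of Car4.

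Car4 encodes carbonic anhydrase 4, an enzyme anchored to the outer face of the capillary membrane that interconverts carbon dioxide and bicarbonate. On probe set 1418094_s_at its signals were 1718, 2248 and 1771 in controls 1 to 3 and 623, 682 and 639 in bitransgenic lungs 1 to 3. The lowest control was well above the highest bitransgenic lung, and the 3 bitransgenic values lay close together. The mean went from 1912 ± 292 to 648 ± 30.8 (SD, n = 3 each), a log2 change of −1.43 (SE 0.16, 95% interval −1.79 to −1.08, limma adjusted p = 0.00337), or 2.70-fold lower with an interval of 2.12 to 3.45. This fold is on the log2(signal + pseudocount) scale, which gives a smaller change than the ratio of mean signals. By log2 change it ranked 33 from the lowest of 12625 genes. The second Car4 probe set, 1448949_at, had signals of 1324, 2004 and 1897 against 373, 896 and 482. Its log2 change was −1.50 (SE 0.28, limma adjusted p = 0.066 over 27022 probe sets). Both probe sets therefore gave a similar size, and the second has the wider spread, with bitransgenic 2 highest in its group: without that array it passed (log2 change −1.82). Over 19 alternative settings the change of Car4 lay between −1.61 and −1.18 and passed in 18. The exception was the fit that carried the Actb ratio as a further term (−1.46, limma adjusted p = 0.0682). Without control 3 and bitransgenic 3, the arrays of lowest correlation, Car4 still passed (−1.47, limma adjusted p = 0.00612), a setting added after seeing the data. Car4 lies at 84957754 to 84966054 on chromosome 11 (GRCm38.p6).

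Vegfa itself gave a smaller difference that did not pass. Probe set 1420909_at read 8620, 7747 and 9057 in controls and 6243, 7456 and 6197 in bitransgenic lungs. The groups did not overlap, although bitransgenic 2 came close to control 2. The mean went from 8475 ± 667 to 6632 ± 714, which is 78.3% of the control mean signal, with a log2 change of −0.35 (SE 0.13, 95% interval −0.65 to −0.06, limma adjusted p = 0.412). The dimmer probe set 1451959_a_at read 948, 1346 and 1699 against 743, 1119 and 590, which overlapped. Its log2 change was −0.66 (limma adjusted p = 0.453). In the fit that carried the Actb ratio, the value for Vegfa was −0.19. Vegfa spans 46016993 to 46032377 on chromosome 17.

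Kdr encodes the main signalling receptor for VEGF-A on endothelial cells. Its probe set 1449379_at read 9741, 9773 and 12571 in controls and 8447, 8525 and 8721 in bitransgenic lungs. The bitransgenic values were nearly equal and all lay below the controls, among which control 3 stood highest. The log2 change was −0.31 (SE 0.13, 95% interval −0.61 to −0.01, limma adjusted p = 0.500), and the mean signal was 80.1% of the control mean. Leaving out control 3 gave −0.19, and carrying the Actb ratio in the fit gave −0.09.

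Nrp1, a cell surface co-receptor for VEGF-A and for class 3 semaphorins, was read by 4 probe sets, and all bitransgenic arrays lay below all controls in each. On 1448943_at the signals were 24800, 22883 and 21548 against 17700, 19198 and 13297, with a log2 change of −0.48 (SE 0.15, 95% interval −0.81 to −0.14, limma adjusted p = 0.308). The other 3 had log2 changes of −0.52 (1448944_at, SE 0.12, limma adjusted p = 0.138), −0.33 (1418084_at) and −0.25 (1457198_at). On 1457198_at the groups nearly met, with control 2 at 6701.5 and bitransgenic 2 at 6677.9. These 4 probe sets read the same RNA extracts, so their agreement in direction is not independent. None passed.

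Emcn encodes endomucin, a sialomucin on the surface of venous and capillary endothelium. Signals on 1425582_a_at were 10025, 11776 and 17682 in controls and 7204, 8396 and 7785 in bitransgenic lungs. The groups did not overlap, and control 3 was far above the other 2 controls. The log2 change was −0.71 (SE 0.20, 95% interval −1.15 to −0.27, limma adjusted p = 0.217), and the mean signal was 59.2% of the control mean. Leaving out control 3 gave −0.48, and carrying the Actb ratio in the fit gave −0.21.

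Ednrb, Apln and Aplnr showed little difference. Ednrb, the endothelin receptor type B, read 16871, 15783 and 17790 in controls and 14626, 13836 and 19174 in bitransgenic lungs on 1437347_at, where bitransgenic 3 was the highest of all 6. Its log2 change was −0.10 (95% interval −0.42 to 0.22, limma adjusted p = 0.889), and its other probe sets gave −0.03 (1426314_at) and −0.17 (1423594_a_at). With 1 array left out Ednrb ranged from −0.24, without bitransgenic 3, to −0.0040, without bitransgenic 2. Apln, which encodes the apelin peptide, read 1879, 2238 and 2864 against 2050, 2192 and 2404 on 1451038_at, with every bitransgenic value inside the control range. Its log2 change was −0.05 (95% interval −0.43 to 0.33, limma adjusted p = 0.963), and the sign turned in several alternatives, to 0.25 when the fit carried the Actb ratio and to 0.10 without control 3. Aplnr, the apelin receptor, read 45060, 35700 and 38548 against 34238, 32132 and 37033 on 1438651_a_at. The log2 change was −0.20 (95% interval −0.47 to 0.07, limma adjusted p = 0.673), and its second probe set 1423037_at gave −0.12. Without control 1 the value for Aplnr was −0.11. The intervals of these 3 genes exclude a fall as large as that of Car4 and include 0.

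**Figure D2:**
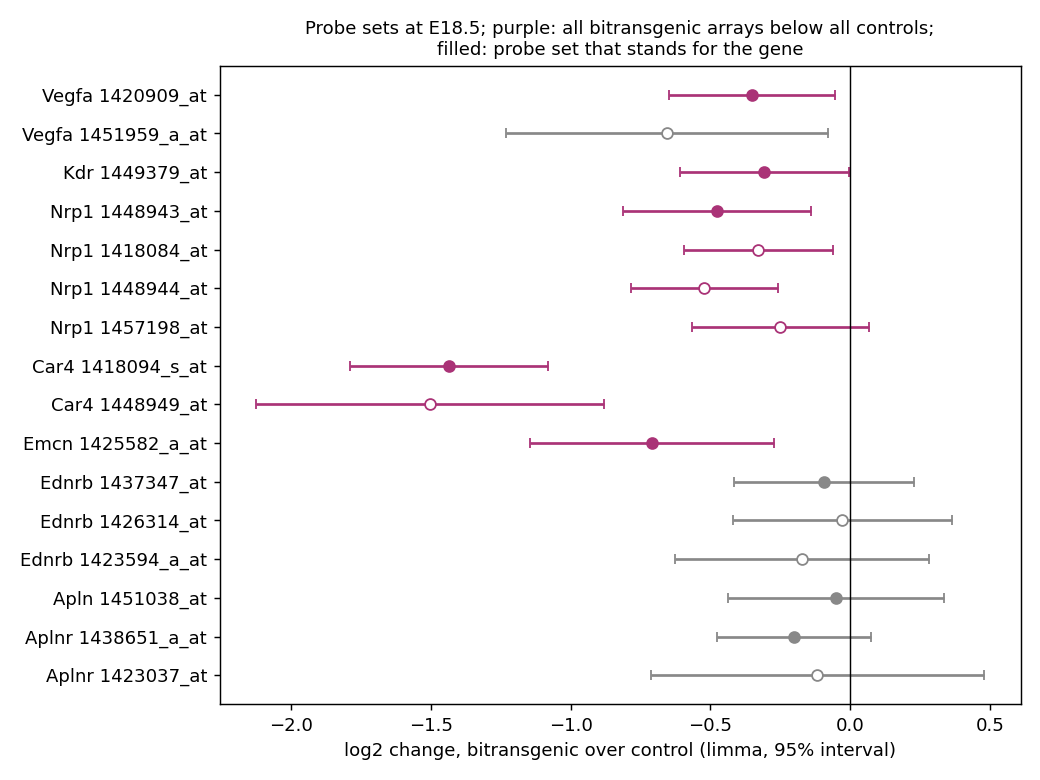
Log2 change, bitransgenic over control, of the 16 probe sets of the 8 genes at E18.5 with 95% intervals from limma. Filled symbols mark the probe set that stands for its gene, and purple marks the 9 probe sets in which all bitransgenic arrays lay below all controls. All 16 values are below 0, and the 2 probe sets of Car4 are the farthest, at −1.43 and −1.50.

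Taken by probe set, all 16 had a negative log2 change. Of the 12625 genes tested, each read by 1 probe set, 47.4% were negative, and the share over all probe sets is not given. All bitransgenic arrays lay below all controls in 9 of the 16, against 7.3% of the 27022 probe sets tested, and 1 of the 16 was called, against 0.281% called lower. All 16 passed the filter on low signals. Probe sets of 1 gene share its RNA, so the 16 are not 16 independent measurements.

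General endothelial genes were examined beside the members. Of 20 core endothelial genes, none of them a member, 0 passed limma's test, 20 had a negative log2 change and 11 had all bitransgenic arrays below all controls, with a median of −0.39. Their summed signal was 166330 to 197880 in the controls and 124940 to 135040 in the bitransgenic arrays. The list's median was −0.38 without control 3 and −0.23 when the fit carried the Actb ratio, which was higher in every bitransgenic array. The genes with the smallest p-values in that list were Cd34, a sialomucin of capillary endothelium, at −0.72 (13161 to 7939 mean signal, limma adjusted p = 0.0804), and Cldn5, an endothelial tight junction claudin, at −0.62 (limma adjusted p = 0.092). Each capillary member was therefore also expressed relative to the mean log2 signal of those 20 genes on the same array, with an exact two-sided permutation test over the 6 arrays, whose smallest possible p is 0.1.

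Relative to the endothelial genes, Car4 was still lower in every bitransgenic lung. Its relative log2 values were −1.86, −1.60 and −2.08 in controls and −2.90, −2.85 and −2.88 in bitransgenic lungs, a difference of −1.03 (SE 0.14, exact permutation p = 0.1). Emcn was the other member below its controls on this scale, by −0.30 (SE 0.17, exact permutation p = 0.1), and without control 3 the difference was −0.14. Nrp1 differed by −0.07 (SE 0.20) and Kdr by 0.10 (SE 0.06), each with overlapping groups, and Nrp1's sign turned when control 1 or bitransgenic 3 was left out. Aplnr at 0.21 (SE 0.17) and Ednrb at 0.31 (SE 0.17) also overlapped. Apln lay above the controls in all 3 bitransgenic lungs, by 0.36 (SE 0.12, exact permutation p = 0.1). The members thus spread from −1.03 to 0.36 around the endothelial mean, whose own change was −0.41. With 3 arrays a group none of these differences can reach 0.05, and 7 such tests were made here.

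**Figure D3:**
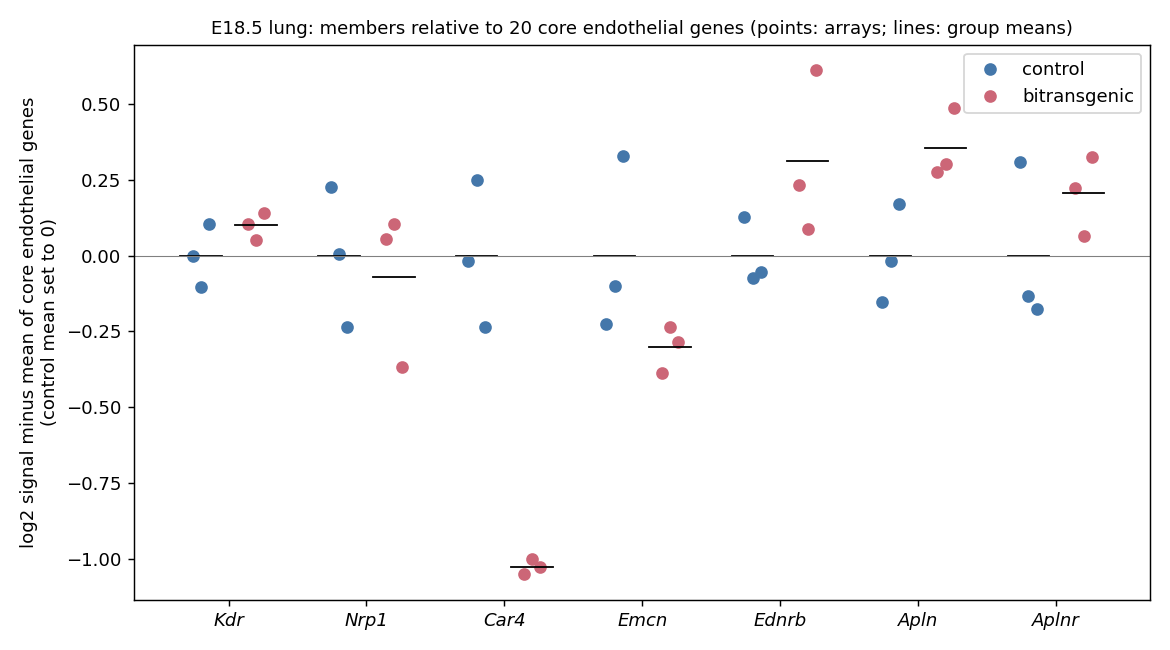
Log2 signal of each capillary member minus the mean of 20 core endothelial genes on the same E18.5 array, with the control mean set to 0 (points are arrays, lines are group means). Car4 and Emcn lie below all controls, Apln lies above them, and the other 4 genes overlap.

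Vegfa is made by epithelium, and alveolar type I cells, the thin cells that line the airspaces, are a known source near birth, so it was set beside 18 alveolar type I genes other than itself. Relative to their mean it was higher in all 3 bitransgenic lungs, by 0.36 (SE 0.08, exact permutation p = 0.1). The mean of the list changed by −0.71, and the median of its genes' log2 changes was −0.34, against −0.35 for Vegfa. The relative value depended on how the list was summarised. It was larger with a shorter list or with the list's median in place of its mean, as given in the last section. Aqp5, a water channel, had the lowest value of the list at −3.65. Of the 19 type I genes tested, Vegfa included, 5 were called lower and 0 higher by limma. These were Aqp5 (limma adjusted p = 0.000207), Msln (−1.61, also counted with the mesothelial genes below), Scnn1g (−1.19), Clic5 (−1.43) and Rtkn2 (−1.47), the last named after its value was seen. Without control 2, or without bitransgenic 3, the list had 1 call. Their summed signal was 402230 to 425270 in controls and 300580 to 337040 in bitransgenic lungs. Of 18 alveolar type II genes, 7 were called lower and 0 higher with a median of −0.92, while Sftpc was at 0.00.

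The other VEGF ligands and receptors gave no calls. Of 9 genes tested in that family, 0 passed limma's test in either direction, 7 had negative changes and the median was −0.31, or −0.04 over the 6 that are not members. Flt4, the VEGF-C receptor of lymphatic and growing vessels, had a log2 change of −0.52 (mean signal 4480 to 3059, limma adjusted p = 0.245), and its ligand gene Vegfc −0.51 (limma adjusted p = 0.467). Among 14 genes induced by VEGF or marking tip cells, the leading cells of sprouts, 0 passed, 12 were negative and the median was −0.27. Rcan1, a calcineurin regulator induced by VEGF-A, was at −0.50 (limma adjusted p = 0.248), and Dll4, a Notch ligand of tip cells, at −0.44 (limma adjusted p = 0.451). Hypoxia and HIF genes, among which Vegfa is a well known target, gave 0 calls of 20 with 13 negative and a median of −0.09, and Ankrd37, a HIF target, was at −0.81 (limma adjusted p = 0.089).

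The apelin and endothelin genes had 0 of 7 called by limma, all 7 negative and a median of −0.12. Edn1, a ligand of the receptor Ednrb, read 922, 1038 and 1146 in controls and 861, 685 and 688 in bitransgenic lungs, without overlap. Its log2 change was −0.43 (limma adjusted p = 0.422). Ece1, the enzyme that processes endothelin precursors, was at −0.11.

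The 2 capillary lists differed in their medians. Of 18 aerocyte genes, 1 was called lower, which was Car4, and 17 were negative with a median of −0.38, and the median was the same over the 12 that are not members. Icam2, an endothelial adhesion molecule, was at −0.59 (limma adjusted p = 0.231), while Fibin was at 0.27 with all bitransgenic arrays above all controls, a gene named after its value was seen. Of 15 general capillary genes 0 were called and 12 were negative, with a median of −0.22. Kit, the stem cell factor receptor, was at −0.69 there (limma adjusted p = 0.113), and Plvap, a protein of endothelial diaphragms, at −0.42. No test of the difference between the 2 lists was made. The core endothelial median, −0.39, was close to that of the aerocyte list. Some genes, such as Cd34 and Icam2, are in both the aerocyte and the core endothelial list.

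**Figure D4:**
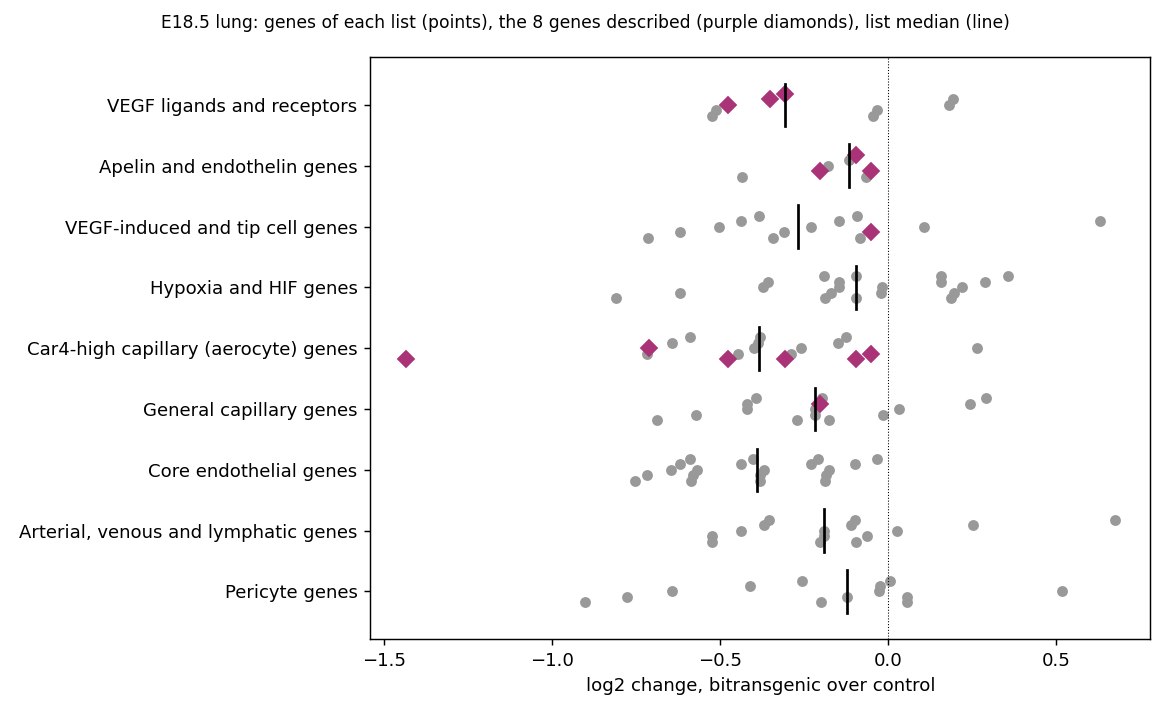
Log2 change, bitransgenic over control, of each tested gene (points) in 9 lists at E18.5, with the 8 genes described as purple diamonds and the list median as a line. Car4 lies apart at −1.43, and the core endothelial genes all lie below 0 with a median of −0.39.

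Car4 also belongs to the carbonic anhydrases, in which it was the 1 gene called of 11 tested. Car2, a cytosolic form named after its value was seen, read 26745 in controls and 26679 in bitransgenic lungs, a log2 change of 0.00. Car8, which lacks the enzyme activity, was at −0.69 (mean signal 8865 to 5441, limma adjusted p = 0.12). The family's median was −0.13. Among 7 sialomucins, the family type of Emcn, 0 were called, 4 were negative and the median was −0.23. Podxl, which coats endothelial surfaces, was at −0.54 (limma adjusted p = 0.125).

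Markers of other cells that share the lung with the capillaries differed in their values. Of 13 pericyte genes, 0 were called and the median was −0.12, with summed signals of 82088 to 88554 in controls and 76575 to 78034 in bitransgenic lungs. In that list 9 of the 13 were negative, and 4 had all bitransgenic arrays below all controls. The pericyte markers Pdgfrb and Kcnj8 were at −0.03 and −0.02. Cspg4, also a pericyte marker, was at −0.26 without overlap (limma adjusted p = 0.684), and Ndufa4l2 was at −0.90 (limma adjusted p = 0.113). Arterial, venous and lymphatic genes had 0 calls of 15 and a median of −0.19, with Lyve1, a lymphatic hyaluronan receptor, at −0.52. The 4 erythroid genes tested had 0 calls and a median of −0.48, and their summed signal was 16754 to 20291 in controls and 10155 to 12389 in bitransgenic lungs. The 9 macrophage genes had a median of −0.02 and 1 call, Lyz2, which type II cells also make, and the 11 smooth muscle and mesothelial genes had a median of −0.01 and 1 call, Msln. The part of these cell types in the members' values was not tested beyond the relative values given above.

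The genes whose pattern over the 6 arrays was nearest to that of each member were found. The measure was the root mean square difference of log2 signal, each gene set to its own mean over those 6 arrays. Nearest to Car4 were Rasgrf2 (distance 0.0955), a Ras guanine exchange factor, Rnase4 (0.160), a secreted ribonuclease, and Fabp12 (0.191), of the fatty acid binding proteins. They changed by −1.55, −1.53 and −1.21, all called by limma (adjusted p = 0.00184, 0.000819 and 0.0341), although Rasgrf2 lost its call when probe sets were averaged and Fabp12 lost its call when any array was left out. The nearest member to Car4 was Emcn, at a distance of 0.461. For Vegfa the nearest were Chst11 (0.046), Cass4 (0.055) and Gypc (0.0561), and the nearest member was Kdr at 0.126. Kdr was nearest to Adgrg6 (0.0281), Nrp1 to Depp1 (0.0451), Emcn to Gucy1b1 (0.0653), Ednrb to Thrb (0.0327), Apln to Ufc1 (0.0217) and Aplnr to Mettl9 (0.0445). With 6 arrays and small differences many genes lie this close, so the distances only describe these arrays.

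At E11.5, when the lung is a branching bud, the question is which genes differ between the lung and the neighbouring trachea, and the 2 tissues had 1 array each, so no test was made. A probe set was called apart where the signals differed by over 2-fold and the higher was above the median of the table, 543. Of the 12 member probe sets, 8 had a signal above that median, and 1 of these 8 was apart, with the trachea higher. Of all 6577 probe sets with a signal above the median, 2.36% were apart in that direction. Nrp1 read 3367 in lung and 8011 in trachea on 95016_at, a log2 ratio of lung over trachea of −1.23, or 2.35-fold higher in trachea. Its other probe set, 92773_at, read 1067 and 2114, a log2 ratio of −0.93 in the same direction.

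The ligand Vegfa was the other way, at 670 in lung and 413 in trachea (log2 ratio 0.60), while its receptor Kdr read 1118 and 1503 (−0.40). Apln read 1447 in lung and 1041 in trachea (0.44). Emcn read 2455 and 3183 on 93885_g_at and 2319 and 2639 on 94997_at, both somewhat higher in trachea and under 2-fold. Of the 8 probe sets with a signal above the median, 3 were higher in lung and 5 in trachea. Nrp1 and Emcn were counted more than once there. The median log2 ratio over all 5699 genes past the filter on low signals was −0.00, and the share of all probe sets in each direction is not given. No lean of the members is read from this count. Car4 read 647 in lung and 549 in trachea on 161818_f_at. Its other probe set, 103046_at, gave 110 and 407, both under the table's median. Ednrb (295 and 342), Aplnr (92.4 and 76.7) and the third Emcn probe set (270 and 157) were also under it. No direction is given for any probe set with both signals under the median.

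**Figure D5:**
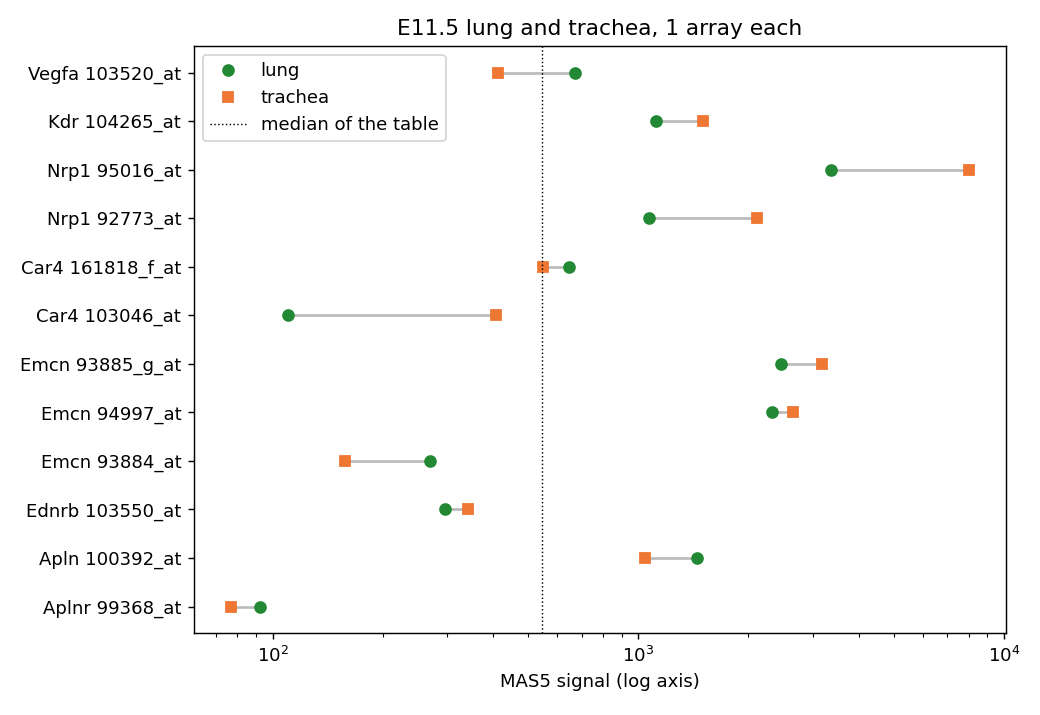
MAS5 signal (log axis) of the 12 probe sets of the 8 genes in 1 lung and 1 trachea array at E11.5. The widest gap among probe sets with a signal above the table median of 543 is that of Nrp1 95016_at, at 3367 in lung and 8011 in trachea.

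Endothelial genes were also compared between the E11.5 tissues. Of 13 core endothelial genes past the filter, 0 were apart and the median log2 ratio was −0.25, against −0.00 over all 5699 genes. Of these 5699 genes, 60 were apart with lung higher and 115 with trachea higher. With so few apart, a count of 0 of 13 does not set the endothelial genes off from the rest. The VEGF family had 2 of 8 apart, both higher in trachea: Nrp1 and Vegfc, which read 554 in lung and 1292 in trachea (log2 ratio −1.11). Of the 5 apelin and endothelin genes 0 were apart, with a median of 0.09. Of 14 aerocyte genes 1 was apart, which was Nrp1, and of 6 general capillary genes 1, the chemokine gene Cxcl12, at −1.60. Of 7 smooth muscle and mesothelial genes, 3 were apart and higher in trachea, with Tagln at −1.55 and Acta2 at −1.26. Nrp1 is also expressed by mesenchymal and muscle cells, and the part of such cells in its ratio was not tested. Sftpc, which marks the distal lung epithelium, read 1503 in lung and 257 in trachea, the order that the tissue labels give.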

How the data were processed

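Total RNA from mouse tissue was labelled with biotin and hybridised to Affymetrix arrays. The authors deposited MAS5 signal intensity per probe set on a linear scale, per the labels; the software version is not given in the sources used here. Signals were used as log2(signal + pseudocount), with the 20th percentile of each table as pseudocount (86.4 at E18.5, 84.3 at E11.5). Control probe sets were left out, and genes were named from the platform annotation (34945 E18.5 probe sets had 1 symbol, 932 several, 9160 none). A gene's probe set was the one with the highest mean, and genes below the 40th percentile (signal 251) were left out. Tests used limma 3.58.1 in R 4.3.3 (lmFit, eBayes with trend), two-sided, with Benjamini-Hochberg adjustment over all 12625 genes or 27022 probe sets and a threshold of 0.05. The test was checked on simulated data with independent noise in each gene. That check did not cover differences shared by a whole array. The E11.5 tables, on another array, were handled separately and no level was compared with E18.5.

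Groups follow the labels, and array numbers follow accession order. The genes and the 16 lists were chosen with earlier results of these data known. Named genes are the members, up to 4 genes of each list with the smallest p at E18.5, the 3 nearest profiles of each member, Mia, and cell type markers such as Pdgfrb, Kcnj8 and Sftpc. Car2, Rtkn2 and Fibin were named outside this rule, after their values were seen. At E11.5 the 2 genes of each list with the widest ratios were eligible. Alternatives covered scaling, pseudocount, filter, probe set choice, trend, array weights, the Actb ratio as covariate and leaving out arrays. The number of arrays limits the precision.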

Additional observations from a re-analysis of the deposited data

How the results depend on the processing

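Of the values for the members, the call counts and the relative values, 323 alternative values kept their direction and side of the threshold, 23 counts or values moved, 6 reversed, 2 gained and 1 lost a call. The 85 genes called became 1339 with array weights, 20 when the Actb ratio was a covariate, 189 without control 3 and bitransgenic 3 (chosen after seeing the data), and 22 to 97 with 1 array left out. The 120 probe sets called became 63 with no filter, 54 with no intensity trend, 3034 with array weights, 20 with the covariate, 236 without both arrays and 30 to 104 with 1 left out. Members called (1) became 3 with array weights, when Nrp1 (−0.36) and Emcn (−0.57) passed, and 0 with the covariate, when Car4 (−1.46) did not. Member probe sets called (1) became 6, 0, and 1 to 2 with 1 array left out.

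Apln reversed to 0.25 with the covariate, to 0.046 without both arrays, and ranged from −0.19 to 0.10 with 1 array left out. Nrp1 relative to endothelial genes ranged from −0.18 to 0.079. Vegfa relative to type I genes moved to 0.77 with the shorter list and 0.73 with the list's median (chosen after seeing the data), and Car4 relative to endothelial genes to −0.79 with a pseudocount 4 times as large. With the covariate, Cox4i2 became 0.047, Car9 0.061, Klf1 −0.32, C1qa 0.23, Ednrb 1426314_at 0.19, Ednrb 1423594_a_at 0.17 and Aplnr 1423037_at 0.17. With array weights Klf1 became −0.31 and Ednrb 1423594_a_at 0.038, and without both arrays Klf1 became −0.41. With 1 array left out, Ece1 ranged from −0.19 to 0.024, Car9 from −0.42 to 0.0032, Cd164l2 from −0.15 to 0.49, Klf1 from −0.19 to 0.31, Ednrb 1426314_at from −0.15 to 0.093, Ednrb 1423594_a_at from −0.32 to 0.0083 and Aplnr 1423037_at from −0.43 to 0.091. The cause was not tested. No paired analysis was possible because the groups share no replicate numbers in the labels. With 3 arrays a group, the 95% intervals of Ednrb, Apln and Aplnr at E18.5 include 0, so no difference is shown for them. At E11.5, 1 array a tissue allows no test.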
